A study of Mus musculus with 6 samples.

Results

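The genes described here are 9 transcription factors that set or tune the macrophage program: Spi1, Maf, Cebpa, Cebpb, Mitf, Tfec, Klf2, Klf4 and Pparg. They were chosen by name, with no threshold on a measured value, and all 9 were found among the 24061 gene symbols of the count table. All 9 also passed the filter on low counts that left 13348 genes for testing. RNA-seq counts were available for 6 libraries of cells sorted from the mammary glands of FVB/N mice, for which the labels name no transgene or treatment. The sort took CD45+CD11b+F4/80+ cells and split them by the surface level of Lyve-1, a hyaluronan receptor, into 3 Lyve-1- and 3 Lyve-1+ libraries. Each library was 1 pool of 4 mice, so the spread between libraries is a spread between pools. Replicate 1 of each subset came from mice 6 weeks old, and replicates 2 and 3 came from mice 10 weeks old. The comparison asks whether the Lyve-1+ cells of the gland hold a different set of lineage factors from the other CD11b+F4/80+ cells.

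PU.1, the product of Spi1, opens the enhancers that most macrophage genes need, and the C/EBP factors bind beside it in myeloid cells. MAF holds mature macrophages in a non-dividing state and drives genes of the tissue-resident program. MITF and TFEC are sister factors that act on lysosomal genes, KLF2 and KLF4 restrain inflammatory gene expression and shape monocyte and resident macrophage states, and PPARγ turns on lipid uptake and handling, with the retinoid X receptors as its partners.

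Promoter sequence was read for 7 of the 9 genes from RefSeq (build GRCm38.p6) as the 250 bases before the start of transcription. Mitf and Pparg each had 3 start sites, which gave 11 windows in all, and Spi1 and Maf had no entry. The windows of the 3 factors with the highest levels per kb (Cebpb, Klf4, Klf2) and of the factor with the lowest (Tfec) are printed 5′ to 3′, since these genes mark both ends of the order of levels. Capitals mark the core CACCC motif bound by KLF factors, or its reverse complement GGGTG.

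Cebpb, chr2:167688665-167688914, plus strand: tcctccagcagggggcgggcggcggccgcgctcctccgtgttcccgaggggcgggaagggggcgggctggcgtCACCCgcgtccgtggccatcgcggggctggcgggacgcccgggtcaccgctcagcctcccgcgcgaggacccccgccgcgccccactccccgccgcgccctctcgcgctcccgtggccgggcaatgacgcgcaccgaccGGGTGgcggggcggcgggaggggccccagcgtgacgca

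Klf4, chr4:55532476-55532725, minus strand: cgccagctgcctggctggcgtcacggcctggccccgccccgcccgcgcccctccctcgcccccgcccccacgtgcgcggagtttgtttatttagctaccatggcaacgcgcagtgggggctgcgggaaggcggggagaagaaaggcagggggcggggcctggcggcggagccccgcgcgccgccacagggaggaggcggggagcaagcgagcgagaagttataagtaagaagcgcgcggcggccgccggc

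Klf2, chr8:72318812-72319061, plus strand: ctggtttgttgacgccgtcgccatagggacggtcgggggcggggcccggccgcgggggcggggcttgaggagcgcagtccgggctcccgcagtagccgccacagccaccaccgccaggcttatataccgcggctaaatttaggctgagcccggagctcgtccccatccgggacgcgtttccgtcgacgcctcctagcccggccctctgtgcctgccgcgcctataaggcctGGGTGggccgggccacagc

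Tfec, chr6:16898442-16898691, minus strand: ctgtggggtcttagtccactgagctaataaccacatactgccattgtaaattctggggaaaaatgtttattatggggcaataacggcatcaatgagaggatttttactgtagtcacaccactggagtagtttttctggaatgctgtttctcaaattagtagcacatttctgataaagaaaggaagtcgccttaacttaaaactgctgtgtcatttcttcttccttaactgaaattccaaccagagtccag

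The 3 windows of the high factors were rich in G and C, at 81.6% for Cebpb, 74% for Klf4 and 71.2% for Klf2, while the Tfec window held 39.2%. Over 32817 RefSeq windows of the same length the median was 52.4%, with quartiles of 45.2% and 61.2%, so the 3 high factors lay above the upper quartile and Tfec lay below the lower one. Of the windows not printed, that of Cebpa held 66.4%, those of Mitf 59.6%, 58% and 36%, and those of Pparg 82.4%, 63.6% and 40.8%. The highest share was thus in a window of Pparg, a factor with a low level per kb. The KLF core was present on either strand 2 times before Cebpb and 1 time before Klf2, 19 bases from its RefSeq start, and was found neither before Klf4 nor before Tfec. It was present in 52% of all windows. The E-box CACGTG, the palindrome read by MITF-type factors, was found before Klf4 alone among the 11 windows, 182 bases from the start, and in 6.02% of all windows. The first of the 3 Pparg windows, at 82.4% G and C, held the KLF core 4 times. That number was reached in 2.14% of all windows, a share not matched for G and C. The second Pparg window held the core 1 time and the third did not hold it. The PU.1 core GAGGAA (23.3% of all windows) was found in the second Pparg window only. The counts are per gene symbol and do not separate start sites, so they do not show which of these windows was in use. The gene positions given below are those of GENCODE. They begin Klf2 at 72319033, Mitf at 97807052 and Pparg at 115360951, inside the Klf2 window and the first windows of Mitf and Pparg.

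The 6 libraries held 6478007 to 21406839 counts, and 3 counts, the limit that a count of 0 allows, were worth 0.144 to 0.437 CPM (counts over the TMM-scaled library size). Lyve1 was at 1.43 to 7.43 CPM in the Lyve-1- libraries and at 597 to 2352 CPM in the Lyve-1+ libraries, so no library went against its sort. The defining markers of the sort were present in every library, with Itgam (CD11b) at 729 to 1232 CPM, Adgre1 (F4/80, listed under its older symbol Emr1) at 201 to 390 CPM and Ptprc (CD45) at 645 to 1693 CPM. The 8 macrophage markers summed to 4370 to 6994 CPM in Lyve-1- and to 4931 to 6266 CPM in Lyve-1+. Lymphatic endothelium, which also carries Lyve-1 on its surface, had marker sums of 14.6 to 66.6 CPM and 22.9 to 42.7 CPM, with Ccl21a at 0 counts in all libraries. Monocyte markers summed to 536 to 1152 CPM and 363 to 861 CPM, and B cell markers to 9.75 to 46.8 CPM and 29.3 to 151 CPM. Reads also lay on olfactory receptor genes, whose main site of expression is the nose, at 0.034 to 2.65 counts per kb, with the highest value in Lyve-1- replicate 3. At that density, 14.8 of the 62 counts of Tfec in this library (23.9%), 7.69% of those of Mitf and 7.23% of those of Pparg would be background, and at most 2.64% of those of any other of the 9 genes. Lyve-1- replicate 3 was also the smallest library. Whether fewer cells of a type or less RNA per cell lowers a level cannot be told apart in such sorted bulk samples.

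None of the 9 factors passed the limits taken from the study (an adjusted p below 0.01 and a change between 1 and 10 in size, read here on the log2 scale) or an adjusted p under 0.05 in edgeR's quasi-likelihood test of Lyve-1+ against Lyve-1-. Over all genes, 15 (0.112%) passed the first rule and 84 (0.629%) the second. With no limit on the size of the change, the count of factors at an adjusted p below 0.01 was also 0. At an unadjusted p under 0.05 there were 2, Maf and Klf4, both with higher means in the Lyve-1+ libraries, beside 7.69% of all genes in either direction and 4.2% in that one. DESeq2, the tool the study used, put none of the 9 under an adjusted p of 0.05 and 1.99% of the genes it tested. It put 148 genes past the study's limits, so the edgeR test called far fewer genes at those limits. The 3 libraries of each subset did not overlap for 2 factors (22.2%), Maf and Tfec, both higher in Lyve-1+, against 14.3% of all genes in either direction and 7.82% in that one. For Tfec the subsets all but met, at 16.3 CPM in Lyve-1+ replicate 3 and 16.0 CPM in Lyve-1- replicate 1. The median log2 fold change of the 9 was 0.12, with 7 above 0 and 2 below, and that of all genes was -0.011, with 49.4% above 0. The comparisons measure the spread among 3 pools a subset. The common biological coefficient of variation over genes was 0.931, but the tests used a spread estimated gene by gene. Standard errors of the 9 log2 fold changes ran from 0.28 for Spi1 to 0.86 for Tfec, so that small differences were not detectable.

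**Figure D1:**
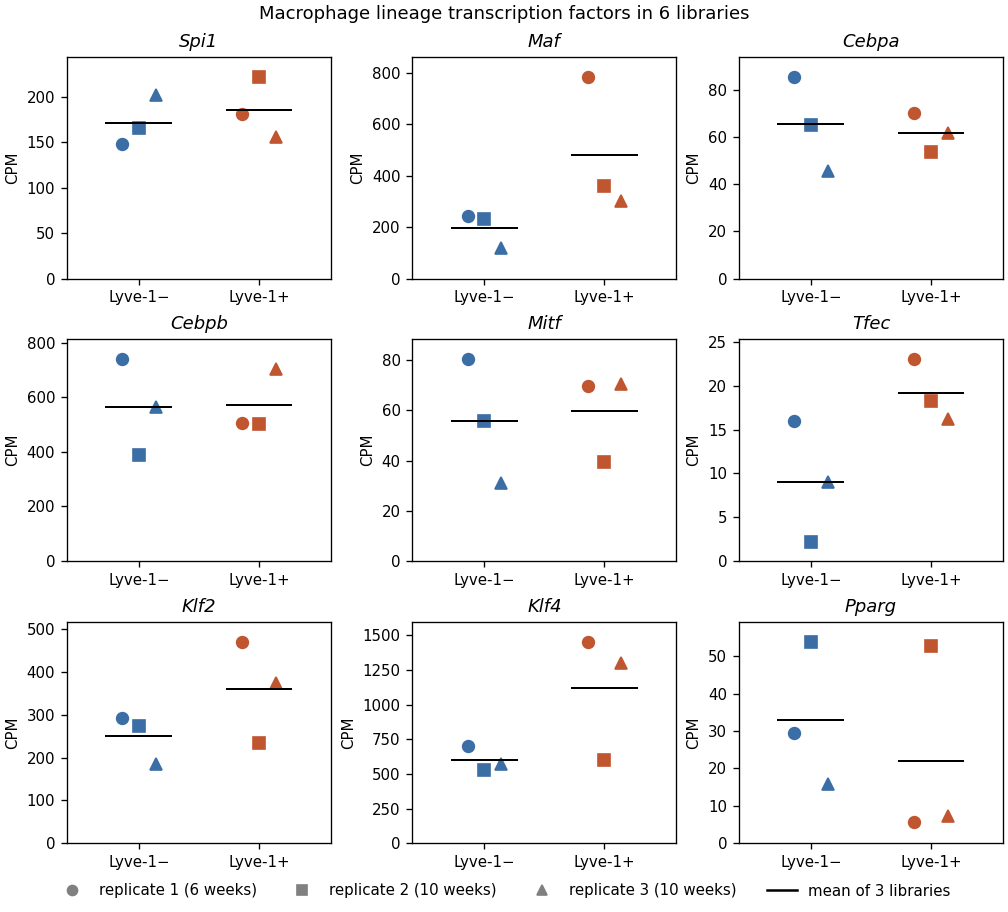
Level in CPM (linear axes from 0) of the 9 factors in each library, with Lyve-1- in blue, Lyve-1+ in orange, symbols for the replicate and its age, and black lines for the mean of 3 libraries. Maf and Tfec are the panels where every Lyve-1+ library lies above every Lyve-1- library, for Tfec only by 16.3 against 16.0 CPM. Pparg is high in replicate 2 of both subsets, at 53.8 and 52.7 CPM.

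**Figure D2:**
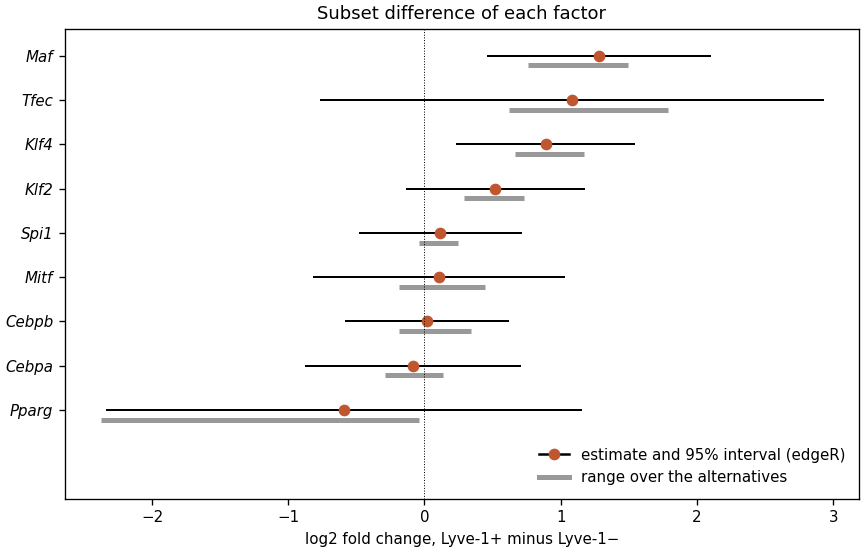
Log2 fold change of each factor, Lyve-1+ minus Lyve-1-, with its 95% interval from edgeR (black) and the range of the estimate over 16 alternative analyses (grey). The intervals of Maf and Klf4 lie above 0, and those of the other 7 factors span it.

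Maf (chr8:115682942-115707794, minus strand, mm10), the large MAF factor of the resident program, had the largest difference of the 9. It was at 242, 233 and 120 CPM in Lyve-1- replicates 1, 2 and 3, and at 784, 361 and 304 CPM in the Lyve-1+ replicates. The lowest Lyve-1+ library stood above the highest Lyve-1- library, and the 6-week Lyve-1+ library stood apart at the top. Means were 198 ± 67.7 and 483 ± 262 CPM (SD, n = 3 each). The log2 fold change was 1.28 (SE 0.38, 95% interval 0.47 to 2.10), or 2.43-fold, with an adjusted p of 0.233 in edgeR. Without Lyve-1+ replicate 1 the log2 fold change was 0.76. Over all 16 alternatives it lay between 0.76 and 1.5, with adjusted p from 0.00482 to 0.935, and 2 of them put Maf past the study's limits. Those were the analysis with no filter on low counts and the one with the replicate number as a block, with adjusted p of 0.00482 and 0.00644. T cells also use Maf, and the summed level of the 8 T cell markers in the table was 259 to 353 CPM in Lyve-1- and 83.0 to 286 CPM in Lyve-1+. Fibroblast markers went the other way, at 913 to 1064 CPM in Lyve-1- and 1452 to 5991 CPM in Lyve-1+. The part of T cells or fibroblasts in the Maf level was not tested. Of the exonic bases of Maf, 5.34% are shared with an antisense gene, and whether the counting used strand is not stated.

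The small MAF proteins, which lack an activation domain, showed no common direction, with log2 fold changes of -0.43 for Mafg, -0.18 for Maff and 0.50 for Mafk, none past an adjusted p of 0.05. Mafa was at 0 counts in all 6 libraries.

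All 10 genes of a list of MAF targets had a higher mean in Lyve-1+, with a median log2 fold change of 1.82. At an adjusted p under 0.05, 6 rose (C1qa, Cd163, Folr2, Lyve1, Timd4 and F13a1) and none fell, beside 60 (0.45%) and 24 (0.18%) of all genes, and 2 passed the study's limits. The study named 9 of these 10 genes from these same libraries, and Lyve1 encodes the protein used for the sort, so the list is not independent evidence of its direction. Folr2, a folate receptor of resident macrophages, had the smallest adjusted p of the list (0.00123), with a log2 fold change of 3.56 (SE 0.40). Cd163, the haemoglobin scavenger receptor, followed at 2.47 (SE 0.36, adjusted p = 0.00805). The smallest difference was that of the cytokine gene Il10, at 0.20 (SE 0.83), which turned to -0.19 with the replicate block. Without Lyve-1- replicate 3, Folr2 alone of the 6 stayed under 0.05, while 19 rather than 84 of all genes did.

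Klf4 (chr4:55527143-55532466, minus strand), a KLF factor of monocytes and resident macrophages, was at 706, 531 and 576 CPM in the Lyve-1- replicates and at 1454, 604 and 1301 CPM in the Lyve-1+ replicates. Lyve-1+ replicates 1 and 3 stood above all Lyve-1- libraries, and Lyve-1+ replicate 2 lay within their range. The means were 604 ± 90.7 and 1119 ± 453 CPM (SD, n = 3 each), and the log2 fold change was 0.89 (SE 0.30, 95% interval 0.24 to 1.54, adjusted p = 0.339). When Lyve-1+ replicate 2 was left out it became 1.17, with an adjusted p of 0.0493, the smallest of a range up to 0.986 over 16 alternatives.

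Klf2 (chr8:72319033-72321656, plus strand), the KLF factor of quiescence in lymphocytes and endothelium as well as macrophages, was at 292, 274 and 184 CPM in Lyve-1- and at 470, 235 and 373 CPM in Lyve-1+. Lyve-1+ replicate 2 was again within the Lyve-1- range and the other Lyve-1+ libraries were above it. The log2 fold change was 0.52 (SE 0.30, 95% interval -0.13 to 1.17) with an adjusted p of 0.849, and the estimate stayed between 0.29 and 0.73 over the alternatives. The 3 libraries with the most Klf4 were also the 3 with the most Klf2, namely Lyve-1- replicate 1 together with Lyve-1+ replicates 1 and 3. Per kb, Klf4 exceeded Klf2 in all 6 libraries, by a ratio of 1.17 to 2.11.

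Markers of other cells that use KLF genes gave mixed values beside these. The summed fibroblast markers were at 913 to 1064 CPM in Lyve-1- and at 2056, 1452 and 5991 CPM in Lyve-1+ replicates 1, 2 and 3, led by Col3a1, and the Lyve-1+ library lowest in them was also the one lowest in Klf4. Blood endothelial markers were at 94.2 to 218 CPM in Lyve-1- and at 135, 304 and 85.4 CPM in Lyve-1+, highest in the Lyve-1+ library with the least Klf2. Mammary epithelial markers were lower in Lyve-1+, at 104 to 153 CPM against 290 to 437 CPM. The summed early-response genes that tissue digestion induces, 18 in the list, were at 24254, 19081 and 19166 CPM in Lyve-1- and at 30254, 20890 and 23778 CPM in Lyve-1+, so that their highest library was also that of Klf4. None of the 18 passed an adjusted p of 0.05, and 14 had a higher mean in Lyve-1+, from Jun at a log2 fold change of 1.06 (adjusted p = 0.123) down to Nr4a1 at -0.11. Jun had an adjusted p under 0.05 in 5 of 16 alternatives. The part of these cells and genes in the Klf2 and Klf4 levels was not tested.

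Among 12 tested KLF relatives, Klf6 was the most abundant, at 1014 to 1900 CPM in Lyve-1- and 1429 to 1931 CPM in Lyve-1+, with a log2 fold change of 0.13 (95% interval -0.44 to 0.69). None of the 12 passed an adjusted p of 0.05. A list of 11 KLF2 and KLF4 targets had 4 genes with a higher and 7 with a lower mean in Lyve-1+, a median of -0.11 and none past an adjusted p of 0.05. Its ends were S1pr1, the sphingosine-1-phosphate receptor of lymphocyte egress, at 1.13 (adjusted p = 0.582) and Ccr7, the chemokine receptor of migrating dendritic cells, at -2.61 (adjusted p = 0.36), which 5 of 16 alternatives put under an adjusted p of 0.05. Ccr7 also belongs to the 8 dendritic cell markers, of which 7 had a lower mean in Lyve-1+, with a median log2 fold change of -1.22 and none past an adjusted p of 0.05. Their sum was 817 to 1108 CPM in Lyve-1- and 691 to 966 CPM in Lyve-1+, led by Clec10a, the 1 marker with a higher mean in Lyve-1+. The part of dendritic cells in the Ccr7 level was not tested.

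Spi1 (chr2:91082390-91115756, plus strand) had the most even level of the 9. It was at 148, 166 and 202 CPM in the Lyve-1- replicates and at 181, 222 and 155 CPM in the Lyve-1+ replicates, so that the highest library held 1.5 times the lowest and the subsets overlapped. The means were 172 ± 27.7 and 186 ± 33.4 CPM (SD, n = 3 each), and the log2 fold change was 0.12 (SE 0.28, 95% interval -0.48 to 0.71). That interval leaves room for a fold between 0.719 and 1.63. Its sister Spic, the factor of iron-recycling macrophages, had a log2 fold change of -0.39 (95% interval -1.56 to 0.79), and Spib, a factor of B cells and plasmacytoid dendritic cells, one of -2.30 (95% interval -6.29 to 1.68).

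Of 14 PU.1 targets, 6 had a higher and 8 a lower mean in Lyve-1+, with a median of -0.029 and none past an adjusted p of 0.05. Tlr4, the endotoxin receptor, was at the upper end with a log2 fold change of 1.52 (SE 0.46, adjusted p = 0.242). Csf2rb, the shared chain of the GM-CSF receptor, was at the lower end with -1.26 (SE 0.30, adjusted p = 0.0873), and 7 of its 16 alternatives gave an adjusted p under 0.05.

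Cebpb (chr2:167688915-167690418, plus strand), the C/EBP factor of activated macrophages, was at 738, 389 and 565 CPM in Lyve-1- and at 507, 503 and 705 CPM in Lyve-1+. Cebpa (chr7:35119293-35121928, plus strand), the factor that commits progenitors to the myeloid line, was at 85.4, 65.3 and 45.6 CPM in Lyve-1- and at 70.0, 53.6 and 61.6 CPM in Lyve-1+. The subsets overlapped for both genes. The log2 fold changes were 0.019 for Cebpb (SE 0.28, 95% interval -0.57 to 0.61) and -0.085 for Cebpa (SE 0.37, 95% interval -0.87 to 0.70), and both changed sign among the alternatives. Per kb, Cebpb stood 10.4 to 21.7 times above Cebpa in the 6 libraries, with means of 15.8 in Lyve-1- and 16.4 in Lyve-1+. Of the exonic bases of Cebpb, 20.7% are shared with exons of Tmem189 on the opposite strand, so part of its count is uncertain.

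Cebpd, the C/EBP factor of the acute-phase response, differed more than either. It was at 37.1, 33.3 and 44.5 CPM in Lyve-1- and at 152, 65.4 and 163 CPM in Lyve-1+, a log2 fold change of 1.73 (SE 0.39) with an adjusted p of 0.0668, and 6 of its 16 alternatives gave an adjusted p under 0.05. The Lyve-1+ library with the least Cebpd was the one with the least Klf4. Of 12 C/EBP targets, 8 had a higher and 4 a lower mean in Lyve-1+, with a median of 0.50 and none past an adjusted p of 0.05. S100a8, a calprotectin subunit, lay at the upper end with 2.81 (SE 1.12, adjusted p = 0.494), and Ptgs2, the inducible cyclooxygenase, at the lower end with -1.05 (SE 0.47, adjusted p = 0.628). Ptgs2 had an adjusted p under 0.05 in 3 of 16 alternatives, and S100a8 stood at 1.39 when Lyve-1+ replicate 3 was left out. S100a8 is also a neutrophil marker, was highest in Lyve-1+ replicate 3 at 46.0 CPM, and that library held the most neutrophil markers in sum, at 499 CPM against 52.7 to 107 CPM in the other 5. That sum includes S100a8 itself, and the part of neutrophils in the S100a8 level was not tested.

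Mitf (chr6:97807052-98021349, plus strand), the factor shared by melanocytes, osteoclasts, mast cells and macrophages, was at 80.2, 55.6 and 31.1 CPM in Lyve-1- and at 69.8, 39.5 and 70.3 CPM in Lyve-1+. The subsets overlapped, with a log2 fold change of 0.10 (SE 0.43, 95% interval -0.81 to 1.02) whose sign changed when single libraries were left out. Mast cell markers summed to 104 to 134 CPM in Lyve-1- and to 59.6, 324 and 192 CPM in Lyve-1+. The library with most of them, Lyve-1+ replicate 2, was the Lyve-1+ library with the least Mitf. The other Lyve-1+ libraries, at 59.6 and 192 CPM of these markers, held nearly the same Mitf, at 69.8 and 70.3 CPM. The part of mast cells in the Mitf level was not tested.

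Tfec (chr6:16833373-16898441, minus strand), the member of that family restricted largely to macrophages, was the scarcest factor. It was at 16.0, 2.13 and 9.04 CPM in Lyve-1- and at 23.0, 18.3 and 16.3 CPM in Lyve-1+, and the highest library held 10.8 times the lowest. The Lyve-1+ libraries were close together and all above the Lyve-1- libraries, the nearest of which was the 6-week one. Behind the lowest value stood 24 counts. The log2 fold change was 1.08 (SE 0.86, 95% interval -0.76 to 2.92) with an adjusted p of 0.9999. It became 0.62 when Lyve-1- replicate 2 was left out, 1.79 when replicate 1 of that subset was, and 1.17 with the olfactory receptor background subtracted, an analysis added after the data were seen. Per kb, Mitf exceeded Tfec in every library, by 1.95 to 4.54 times in 5 libraries and by 23.5 times in Lyve-1- replicate 2.

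The other family members were Tfeb, the lysosome and autophagy regulator, at 25.7, 35.5 and 20.4 CPM in Lyve-1- and at 12.6, 3.98 and 7.18 CPM in Lyve-1+, and Tfe3. Tfeb did not overlap between subsets, with a log2 fold change of -1.78 (SE 0.72, adjusted p = 0.506), and Tfe3 stood at 0.46 (SE 0.46). Of 10 tested MITF and TFEC targets, 8 had a higher and 2 a lower mean in Lyve-1+, with a median of 0.74, and 49.4% of all genes had a log2 fold change above 0. Csf3r, a target with a higher mean, is also a neutrophil marker. It was at 42.3, 86.4 and 62.5 CPM in Lyve-1- and at 41.9, 54.1 and 216 CPM in Lyve-1+. Tfrc, the transferrin receptor that takes up iron, rose, from 20.8, 20.8 and 38.3 CPM in Lyve-1- to 236, 155 and 133 CPM in Lyve-1+, a log2 fold change of 2.72 (SE 0.38, adjusted p = 0.00481). It was the 1 gene of the list past an adjusted p of 0.05, and its adjusted p was 0.0607 with the 10-week libraries alone. The lowest value was that of Acp5, the tartrate-resistant acid phosphatase of osteoclasts, at -0.47 (SE 0.46).

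Pparg (chr6:115360951-115490399, plus strand), the lipid-sensing nuclear receptor, divided the libraries by replicate more than by subset. It was at 29.5, 53.8 and 15.7 CPM in Lyve-1- and at 5.64, 52.7 and 7.31 CPM in Lyve-1+. Replicate 2 was the highest of each subset, and the remaining Lyve-1+ libraries lay below every Lyve-1- library. The means were 33.0 ± 19.3 and 21.9 ± 26.7 CPM (SD, n = 3 each), and the log2 fold change was -0.59 (SE 0.80, 95% interval -2.33 to 1.15, adjusted p = 0.9999). Leaving out Lyve-1+ replicate 2 moved the log2 fold change to -2.37 (adjusted p = 0.299), and leaving out Lyve-1- replicate 2 moved it to -0.043, so single libraries set its size. The libraries ordered by Klf4 ran nearly opposite to those ordered by Pparg, with Lyve-1+ replicate 1 highest for Klf4 and lowest for Pparg and Lyve-1- replicate 2 the reverse.

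Adipocytes are among the other users of Pparg in the gland. Adipoq, their defining hormone gene, was at 0 to 3 counts in 5 libraries and at 24 counts in Lyve-1+ replicate 1. The summed adipocyte markers were at 10.5 to 31.4 CPM in Lyve-1- and at 12.5, 16.6 and 31.0 CPM in Lyve-1+. Blood endothelial markers summed to 218, 169 and 94.2 CPM in Lyve-1- and to 135, 304 and 85.4 CPM in Lyve-1+. Fabp4, a PPARγ target that adipocytes also express, was at 126, 45.7 and 13.8 CPM in Lyve-1- and at 26.1, 187 and 32.8 CPM in Lyve-1+. Replicate 2 of both subsets was also high in monocyte-type transcripts, with Ly6c2 at 123 and 68.9 CPM against 4.50 to 18.1 CPM in the other 4 libraries and Chil3 at 77.1 and 81.7 CPM against 3.02 to 7.16 CPM. Adipoq, Fabp4, Ly6c2 and Chil3 lie outside the rule for naming genes, and the adipocyte marker with the highest mean was Pck1. Fabp4, Ly6c2 and Chil3 were picked for these values. The part of adipocytes, blood endothelium or monocytes in the Pparg and Fabp4 levels was not tested.

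Rxra, the retinoid X receptor that pairs with PPARγ, was at 33.5, 37.2 and 38.8 CPM in Lyve-1- and at 112, 105 and 94.2 CPM in Lyve-1+. The subsets were well apart, with a log2 fold change of 1.51 (SE 0.34, 95% interval 0.79 to 2.22) and an adjusted p of 0.0617. The Pparg level per kb was 1.63, 2.68 and 0.751 times that of Rxra in Lyve-1- and 0.093, 0.927 and 0.143 times in Lyve-1+, so the ratio overlapped through Lyve-1+ replicate 2 and Lyve-1- replicate 3 alone. Ppara, the isotype of fatty acid oxidation, had the lowest log2 fold change of the relatives at -3.23 (SE 2.10, adjusted p = 0.922), from 3.70 to 12.5 CPM in Lyve-1- to at most 2.29 CPM in Lyve-1+. Of 12 PPARγ targets, 8 had a higher and 4 a lower mean in Lyve-1+, with a median of 0.20 and none past an adjusted p of 0.05. The highest was Angptl4, an inhibitor of lipoprotein lipase, at 1.26 (adjusted p = 0.722). The 12 targets summed to 2699, 3217 and 2068 CPM in Lyve-1- and to 2391, 3624 and 2334 CPM in Lyve-1+, again highest in replicate 2 of each subset.

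**Figure D3:**
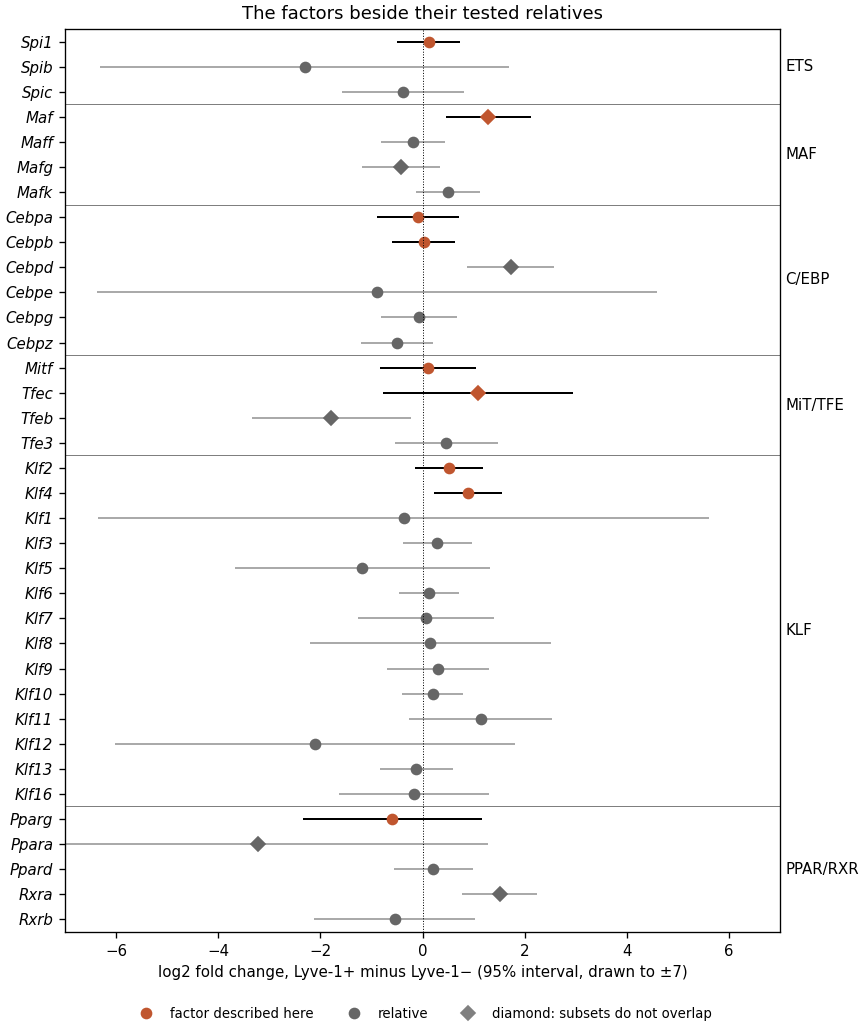
Log2 fold change, Lyve-1+ minus Lyve-1-, of the 9 factors (orange) and 27 of 28 tested relatives (grey) by family, with 95% intervals drawn to ±7 and diamonds where the libraries of the subsets do not overlap. Cebpd and Rxra, at 1.73 and 1.51, lie above every one of the 9 factors, and Ppara and Tfeb are the lowest of the diamonds, at -3.23 and -1.78.

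Of 34 relatives in the counts, 28 passed the filter, 13 with a higher and 15 with a lower mean in Lyve-1+, with a median of -0.095. None passed an adjusted p of 0.05 in edgeR, and 4 (of 28) had an unadjusted p under 0.05, beside 7.69% of all genes. The subsets did not overlap for 6 of them (21.4%, against 14.3% of all genes), 3 higher in Lyve-1+, among them Rxra and Cebpd, and 3 lower, which were Tfeb, Mafg and Ppara. Apart from Cebpd and Ppara, the ends of the list, these were singled out after seeing their values. Of 27 other tested macrophage and monocyte transcription factors, 9 had a higher and 18 a lower mean in Lyve-1+, with a median of -0.11 and none past an adjusted p of 0.05. Gata6, the factor of peritoneal macrophages, had the highest log2 fold change at 1.76 (SE 2.83) on means of 0.389 and 1.30 CPM, and Runx3, a RUNX factor of lymphocytes and mononuclear phagocytes, the lowest at -1.32 (SE 0.46, adjusted p = 0.367), with an adjusted p under 0.05 in 2 of 16 alternatives.

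Levels can be compared between genes only per kb of exonic sequence. On that scale, over the 6 libraries, Cebpb came first with a mean of 377 ± 88.0 CPM per kb (SD, n = 6). Klf4 followed at 283 ± 133, Klf2 at 165 ± 55.4, Spi1 at 66.4 ± 10.6, Maf at 41.3 ± 28.1 and Cebpa at 24.1 ± 5.22. Mitf stood at 9.32 ± 3.11, Pparg at 9.29 ± 7.35 and Tfec at 2.52 ± 1.32. Klf2 and Spi1, and Cebpa and Mitf, were the neighbours in this order whose ranges over the libraries did not overlap. Klf4 exceeded Klf2 in 6 of 6 libraries, Cebpb exceeded Klf4 and Spi1 exceeded Maf in 5, Maf exceeded Cebpa and Pparg exceeded Tfec in 4, and Mitf and Pparg changed places in 3. The exceptions for Cebpb and Spi1 were both Lyve-1+ replicate 1, where Klf4 (477 CPM per kb) and Maf (95.1 CPM per kb) passed them.

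**Figure D4:**
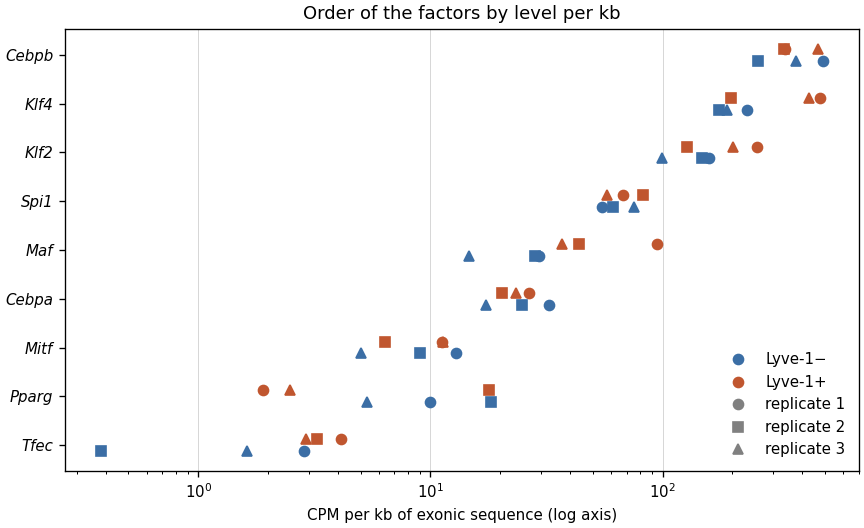
Level per kb of exonic sequence (CPM per kb, log axis) of the 9 factors in the 6 libraries, with genes ordered by their mean, Lyve-1- in blue, Lyve-1+ in orange and symbols for the replicate. Cebpb, Klf4 and Klf2 lie at 99.7 or above in every library, and Tfec lies between 0.381 and 4.11.

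The ages were compared with the subset as a second term. There were 2 libraries at 6 weeks and 4 at 10 weeks, so age cannot be told apart from the pools that stand for it. Maf had a log2 difference of -0.86 (10 weeks minus 6 weeks, SE 0.31, 95% interval -1.52 to -0.21, adjusted p = 0.9999), and no factor passed an adjusted p of 0.05 in edgeR, where 3 genes in all did (0.0225%). Maf was the 1 factor with an unadjusted p under 0.05, which 3.33% of all genes had. Pparg was the factor with the highest estimate, at 1.18 (SE 0.91). None of the 9 had a subset difference that changed with age at an adjusted p under 0.05, which 0.00749% of all genes had, and the smallest adjusted p of the 9 was 0.976. Within the 6-week libraries, 1 a subset and so without a test, the Lyve-1+ minus Lyve-1- difference in log2 CPM was 1.69 for Maf, 1.04 for Klf4 and -2.35 for Pparg. At 10 weeks the difference between the subset means of log2 CPM was 0.98 for Maf, 0.68 for Klf4 and -0.56 for Pparg. For Maf, Klf4 and Pparg these means kept the direction of the 6-week libraries. Single 10-week libraries of Pparg did not all do so, since Lyve-1+ replicate 2 (52.7 CPM) lay above Lyve-1- replicate 3 (15.7 CPM). The same differences of Cebpa, Cebpb and Mitf changed sign. They were -0.29, -0.54 and -0.20 at 6 weeks and 0.073, 0.34 and 0.34 at 10 weeks. Those of Spi1, Tfec and Klf2 kept their sign.

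**Figure D5:**
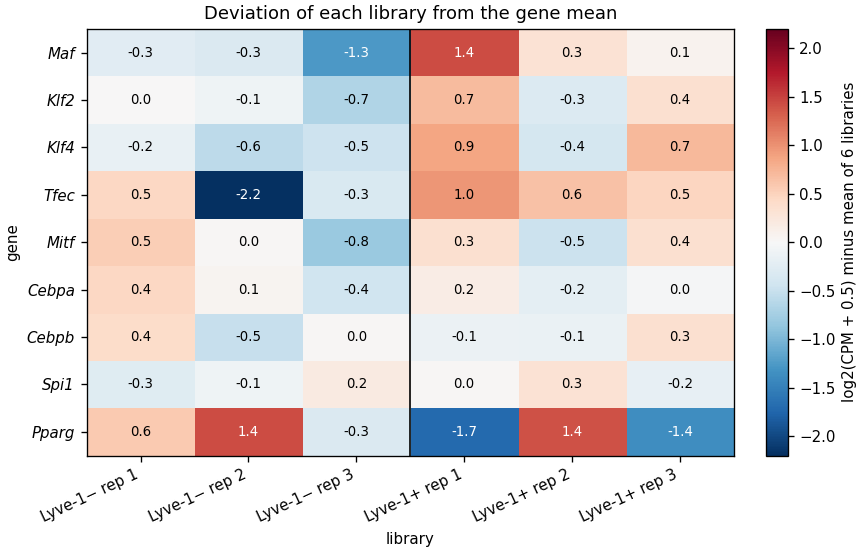
Deviation of each library from the gene's mean, on the scale of log2(CPM + 0.5), for the 9 factors (rows) in the 6 libraries (columns, with a line between the subsets). Red is above and blue below the mean, with Pparg at 1.43 and 1.40 in replicate 2 of the Lyve-1- and Lyve-1+ subsets and Tfec at -2.19 in Lyve-1- replicate 2.

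For each factor the 3 genes with the most similar pattern were taken by Pearson's r of log2 CPM over the 6 libraries, among 8203 genes with an average log2 CPM of at least 3. With 6 points and so many genes, high values arise for any gene, and the points share library depth and sort, so the r values are descriptions. The neighbours of Maf included Aldh2, the mitochondrial aldehyde dehydrogenase, and Plxnb2, a semaphorin receptor (r = 0.990 for each). Aldh2 shows the likeness, at 129, 130 and 96.1 CPM in Lyve-1- and 308, 179 and 157 CPM in Lyve-1+. Those of Klf4 were Tgfbi, a secreted matrix protein, Gfra2, a GDNF family receptor, and Pld4, an endolysosomal exonuclease (r = 0.990, 0.989 and 0.987). Tgfbi was at 722, 578 and 616 CPM in Lyve-1- and at 1273, 702 and 1082 CPM in Lyve-1+.

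Pparg was nearest to S100a6, a calcium-binding protein, Trpm2, a cation channel, and Apc, the Wnt pathway scaffold (r = 0.994, 0.980 and 0.980). S100a6 was at 129, 161 and 96.9 CPM in Lyve-1- and at 73.1, 150 and 81.9 CPM in Lyve-1+, high where Pparg was high. Tfec was nearest to Tnks1bp1, Tada2b and Cltb, Klf2 to 0610031J06Rik, P2rx7 and Hnrnph1, and Spi1 to Gtf3c5, Ssr2 and Zyg11b. Cebpa was nearest to Ebp, Mcmbp and Tsc22d2, Cebpb to Fastkd2, Rpgrip1l and Ubl5, and Mitf to Scaf11, Ppp3ca and Zfp948. Of the 27 neighbours 25 were kept when the prior count was 0.5 in place of 2. None of the 27 had an adjusted p under 0.05 between the subsets.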

How the data were processed

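RNA was measured in 6 libraries, 3 Lyve-1- and 3 Lyve-1+ pools of sorted mammary cells, made with a SMARTer stranded total RNA kit. According to the methods and the submitters' processing notes, the authors aligned reads to mm10 with HISAT2 2.0.2 and counted them per gene with featureCounts 1.5.0 (Subread). The deposited values are whole-number counts, not normalized. The methods also name a removal of genes under a length limit and of an outlier library, and DESeq2 for testing. The strand setting of the counting is not given in the sources used here.

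The 9 genes and all gene lists were chosen with earlier results of these data known. Using R 4.3.3, edgeR 4.0.16 with limma 3.58.1, genes were kept by filterByExpr, normalized by TMM and fitted over all 13348 genes with the robust quasi-likelihood F test, with subset alone in the model and p-values adjusted by Benjamini-Hochberg. Age and its interaction with subset were further terms. DESeq2 1.42.0 was an alternative. No set test was run. Intervals are 95% intervals of the fit. Lengths and positions came from GENCODE M21 on mm10, which 22749 symbols matched directly and 935 through a synonym. Named genes were the 9 factors, the genes of each pathway list past an adjusted p of 0.05, its largest rise and fall, the leading and the absent genes of marker lists, checks of the sort, and the 3 genes most like each factor. Some genes that this rule names are not reported here. Scripts were tested on simulated data. Samples were grouped by their labels. The labels' replicate numbers were checked for pairing: deviations of libraries with the same number correlated at -0.05, -0.00 and -0.15, and the main model did not pair the samples. Values near 0 over all genes tested cannot exclude that libraries with the same number came from the same mice. The choice matters for Maf, which passed the study's limits with the replicate block in edgeR (adjusted p = 0.00644). Library totals were 6478007 to 21406839 counts, and intervals and floors cover counting error only where they rest on counts. No molecular identifiers are named in the sources used here. Besides the MAF list, the study had named at most 2 genes of any list from these libraries.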

Additional observations from a re-analysis of the deposited data

Results flagged for a closer look

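For Lyve1, the interaction of subset and age passed the test, with a log2 value of -4.06 (the Lyve-1+ minus Lyve-1- difference at 10 weeks less that at 6 weeks). With 1 library a subset at 6 weeks, age cannot be told apart from those pools, and Lyve-1 was the marker of the sort.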

How the results depend on the processing

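Over 16 alternatives the count of factors past the study's limits was 0 in the reported analysis and 1 (Maf) with no filter on low counts and 1 (Maf) with the replicate block. The count at an adjusted p under 0.05 was 0 and became 1 with no filter, 1 with the replicate block and, when single libraries were left out, 0 to 1, the 1 being Klf4 without Lyve-1+ replicate 2. The replicate block changed no other call of the 9, although it raised the number of all genes past the study's limits from 15 to 140 and at an adjusted p under 0.05 from 84 to 270. Those limits were passed by 188 genes with no filter, by 148 in DESeq2, by 32 with at least 10 counts in every library, by 58 with age as a covariate, by 18 in the 10-week libraries alone and by 1 to 81 when single libraries were left out. The cause was not tested. Of the 144 values of the 9 factors, 129 kept direction and call, 3 newly passed a test and 12 changed sign. The latter were small values: Cebpb gave -0.00769 in DESeq2, -0.00813 with its size factors, -0.0455 with total library size and -0.0105 with the olfactory receptor background subtracted, an alternative added after the data were seen, and Cebpa gave 0.0393 in the 10-week libraries alone. With single libraries left out, Spi1 ran from -0.0431 to 0.25, Cebpa from -0.29 to 0.14, Cebpb from -0.19 to 0.26, Mitf from -0.18 to 0.45, Itgam from -0.0694 to 0.32, Il10 from -0.35 to 0.68 and Nr4a1 from -0.41 to 0.28. Il10 gave -0.19 with the replicate block. The other named genes gave 413 values, of which 364 kept direction and call, 14 lost a call, 29 gained one and 6 changed sign. No factor passed an adjusted p of 0.05 for age in any of the alternatives run. Lists other than the factors were not refitted as counts. Depth limits Tfec most, at 24 to 381 counts a library.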
